A study of Drosophila melanogaster with 6 samples.

Results

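The 69 mitochondrial ribosomal protein genes described here were taken as every gene whose single symbol in the array's probe annotation starts with mRp. They make up 69 of the 11982 genes that the annotation names, 44 with large subunit names (mRpL) and 25 with small subunit names (mRpS). Each gene was represented by 1 probe set, the one with the highest mean over the 6 arrays. RefSeq lists 73 genes with such symbols. Of the other 4, mRpS10 and mRpL53 have a probe set that also carries another gene's symbol, and these genes were left out; mRpL34 and mRpL37 were not analysed here.

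RNA came from heads of adult female Drosophila melanogaster raised at 25 °C. For RNAi, the labels call one strain Tim-Fbl and the other control, and heads of both were taken at ZT15 and at ZT3. ZT is zeitgeber time, counted in hours from lights-on, so ZT15 falls in the early night and ZT3 in the morning. Tim-Fbl had 1 array at ZT15 and 1 at ZT3, and the controls had 2 arrays at each time, each array an Affymetrix oligonucleotide array hybridised with labelled RNA. The labels do not spell out the Tim-Fbl construct, the cells in which it acts, the genotype of the control or the age of the flies. Each Tim-Fbl condition is a single sample, and nothing in the labels says that the paired controls came from separate cultures, so the p-values measure a spread between samples that may be technical.

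Mitochondria keep a ribosome of their own, which translates the few messages encoded by mitochondrial DNA, all for subunits of the respiratory chain and ATP synthase. Its RNAs come from the mitochondrial genome, but every protein of it is encoded in the nucleus, made in the cytosol and imported. Many of these proteins descend from bacterial ribosomal proteins and keep their numbers, and others are found only in mitochondria. In the fly, loss of such proteins slows growth, and a mutation in tko, the gene of the small subunit protein S12, gives seizure-prone, sluggish flies.

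The gene fbl (fumble), whose symbol is in the strain's label and which encodes pantothenate kinase, was at 7.49 and 7.47 log2 units on the Tim-Fbl ZT15 and ZT3 arrays. It was at 9.27 and 9.11 on the control ZT15 arrays and at 9.28 and 9.26 on the control ZT3 arrays. All 69 mRp probe sets were well within the measured range. Their means over the 6 arrays lay between 7.76 and 11.0 log2 units with a median of 8.85, against a median of 5.49 over all 18769 probe sets tested, and no single mRp value lay under 7.61. Signals of different probe sets depend on their probes and do not rank the genes by transcript amount.

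In Tim-Fbl heads most mRp transcripts were slightly below the control level, and few were far enough below to pass a test. The strain difference was fitted with limma over all 18769 probe sets, as Tim-Fbl minus control averaged over both times, with Benjamini-Hochberg adjustment and a threshold of 0.05. The difference was below 0 for 63 of the 69 genes, or 91.3%, against 55.5% of all probe sets tested. Its median over the 69 was -0.13 on the log2 scale, a 1.10-fold difference, with a middle range (quartiles) of -0.22 to -0.08. Over all probe sets the median was -0.03. Over the 7107 probe sets with a mean log2 of at least 7, where all 69 mRp probe sets lie, the median was 0.09 and 34.2% were below 0. Both Tim-Fbl arrays were below all 4 control arrays for 38 of the 69, or 55.1%, against 19.9% of all probe sets and 13.3% of those with a mean log2 of at least 7. Both were above all 4 for 0 of the 69, against 16.5% of all and 29.7% of those at 7 or more. Of the 69 genes, 3 fell, 0 rose and 66 did not pass. The 3 that fell are 4.35% of the genes, close to the 3.35% of all probe sets and the 4.91% of those with a mean log2 of at least 7 that fell, and 5.44% of all probe sets rose, so their number is no result about the family. At an unadjusted p under 0.05, 21 were lower, or 30.4%, against 14.3% of all probe sets and 11.3% of those with a mean log2 of at least 7, and 0 were higher, against 14.8% of all.

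**Figure D1:**
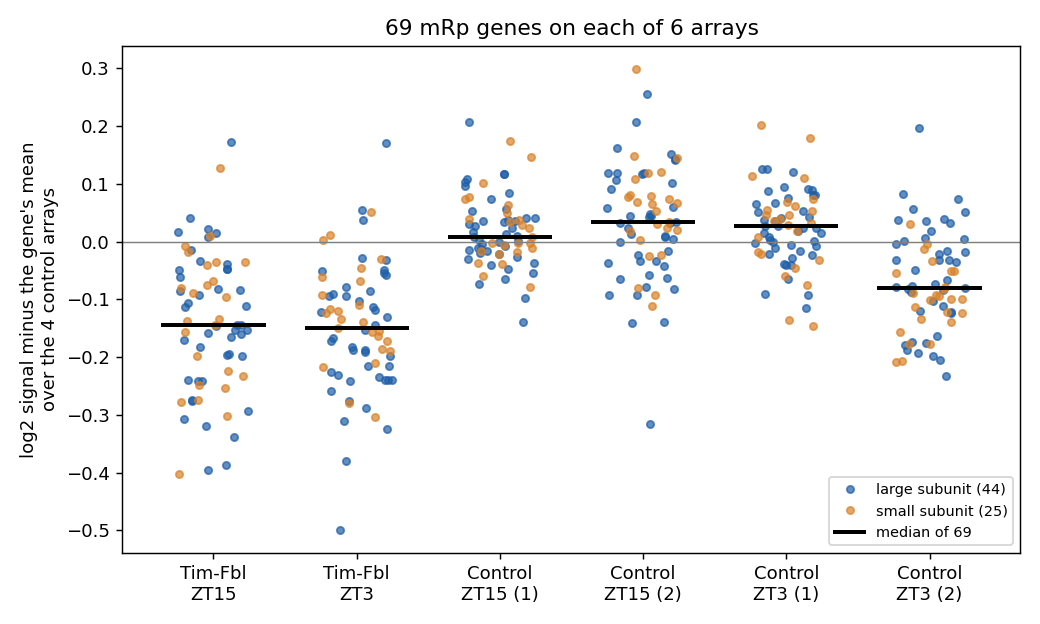
Log2 signal of each of the 69 mRp genes minus that gene's mean over the 4 control arrays (vertical axis), by array (horizontal axis); points are genes, coloured by the subunit in their name, and the bar is the median of the 69. The medians are -0.14 and -0.15 on the Tim-Fbl ZT15 and ZT3 arrays, 0.01 and 0.03 on the control ZT15 arrays, and 0.03 and -0.08 on the control ZT3 arrays.

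The plot of all members by array shows how the shift compares with the difference between control arrays. On the Tim-Fbl ZT15 array 61 of the 69 genes were below their control mean, and on the Tim-Fbl ZT3 array 63 were. The counts were 31 and 22 on the control ZT15 arrays and 24 and 55 on the control ZT3 arrays. For these genes the second control ZT3 array thus stood apart from the other controls in the same direction as the Tim-Fbl arrays. Over the 7107 probe sets with a mean log2 of at least 7, its median deviation from the control mean was also negative, -0.08. On the Tim-Fbl ZT15 and ZT3 arrays that deviation was 0.09 and 0.08. The second control ZT3 array was below its replicate for 58 of the 69 genes, against 4960 of the 7107. Over the 69 genes the median of the first control ZT3 array minus the second was 0.11. The 2 control ZT15 arrays differed by a median of -0.02 in the same order. Without the second control ZT3 array the median strain difference was -0.16, and without the first it was -0.12. The median thus kept its sign but was about as large as the largest median difference between replicate arrays, 0.11. Over the 7107 brighter probe sets that replicate difference was 0.07, and the median strain difference was 0.09, of the opposite sign to that of the mRp genes.

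The largest difference was in mRpL20, which encodes the counterpart of bacterial L20, a protein that binds the large subunit's RNA early in assembly. It was at 8.58 and 8.47 log2 units on the Tim-Fbl ZT15 and ZT3 arrays, against 8.98 and 9.13 on the control ZT15 arrays and 8.86 and 8.92 on the control ZT3 arrays. The strains did not overlap, and the nearest arrays were Tim-Fbl ZT15 and the first control ZT3 array. The transcript fell by 0.44 on the log2 scale, a 1.36-fold difference (SE 0.080, limma adjusted p = 0.0198, 2 Tim-Fbl and 4 control arrays).

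The other genes that fell were mRpL42, for a large subunit protein found only in mitochondria, and mRpL13, for the counterpart of bacterial L13. For mRpL42 the Tim-Fbl ZT15 and ZT3 arrays had 8.57 and 8.65, against 8.90 and 8.94 on the control ZT15 arrays and 9.09 and 8.93 on the control ZT3 arrays. It fell by 0.35 (SE 0.079, limma adjusted p = 0.0368). For mRpL13 the Tim-Fbl ZT15 and ZT3 arrays had 8.87 and 8.81, against 9.17 and 9.30 on the control ZT15 arrays and 9.16 and 9.11 on the control ZT3 arrays. It fell by 0.35 (SE 0.077, limma adjusted p = 0.0359). In both genes every Tim-Fbl value was below every control value. Calls at this size rested on few arrays: leaving out any single control array left 1 or 2 of the 3 calls, mRpL20 among them each time, and leaving out either Tim-Fbl array left 0. After subtraction of each array's median mRpL20 alone passed (mRpL42 adjusted p = 0.0517, mRpL13 adjusted p = 0.0533).

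**Figure D2:**
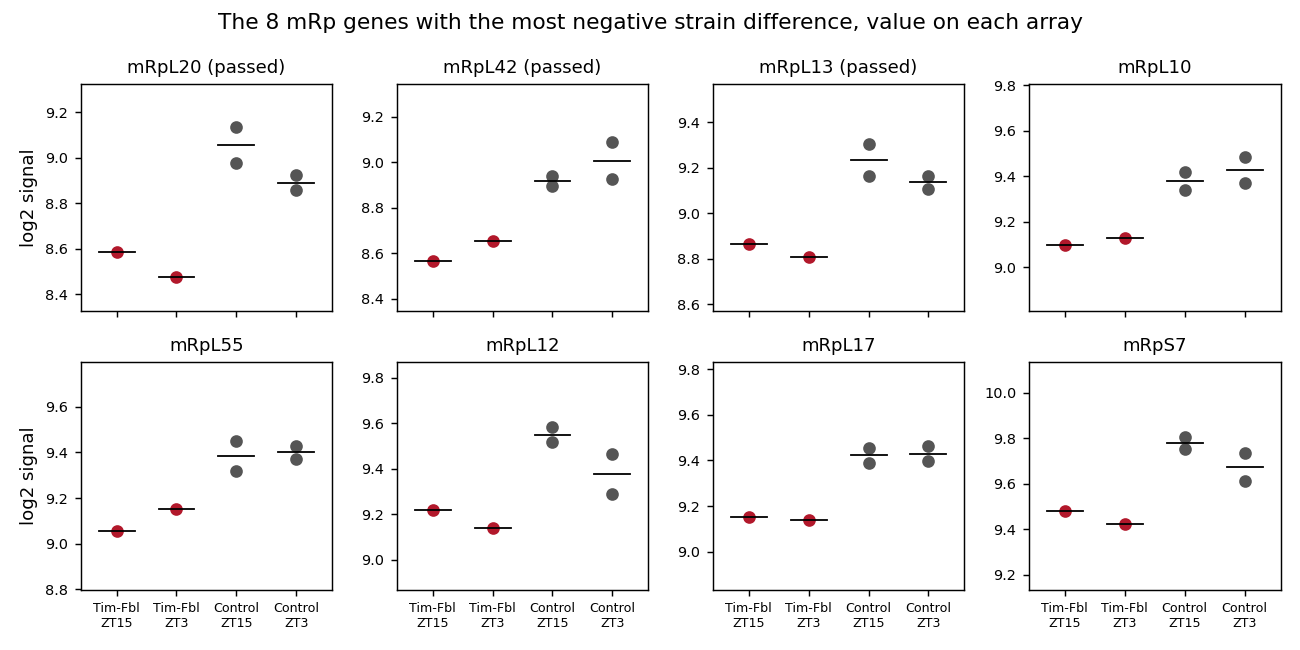
Log2 signal on each array (vertical axis, every panel spanning 1 log2 unit) for the 8 mRp genes with the most negative strain difference; red points are the Tim-Fbl arrays (1 per time), grey points the control arrays (2 per time), and the short line is the mean of each group. In all 8 panels both Tim-Fbl points lie below the 4 control points, and the titles mark the 3 genes that passed.

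The next genes in order did not pass the test. Their groups did not overlap, which follows in part from picking them by this same difference. Both Tim-Fbl arrays were below all 4 control arrays in 19.9% of all probe sets. The base of the stalk, to which translation factors dock, is made by L10, and the stalk itself by L12. The transcript of mRpL10 was at 9.10 and 9.13 on the Tim-Fbl ZT15 and ZT3 arrays, against 9.42 and 9.34 on the control ZT15 arrays and 9.49 and 9.37 on the control ZT3 arrays, a difference of -0.29 (SE 0.076, limma adjusted p = 0.0570). The transcript of mRpL12 was at 9.22 and 9.14 in Tim-Fbl at ZT15 and ZT3, against 9.52 and 9.58 in controls at ZT15 and 9.47 and 9.29 in controls at ZT3, a difference of -0.28 (SE 0.083, limma adjusted p = 0.0763). Of the other stalk, mRpL1, for the counterpart of L1, differed by 0.03 (SE 0.11), with its Tim-Fbl values inside the control range.

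Further large subunit genes with differences of this size were mRpL17, whose bacterial counterpart lies near the exit of the peptide tunnel, and mRpL55. The values of mRpL17 lay close together within each strain, at 9.15 and 9.14 on the Tim-Fbl ZT15 and ZT3 arrays, against 9.46 and 9.39 on the control ZT15 arrays and 9.40 and 9.46 on the control ZT3 arrays. The difference was -0.28 (SE 0.072, limma adjusted p = 0.0550). For mRpL55 it was -0.29 (SE 0.078, limma adjusted p = 0.0619), from 9.05 and 9.15 in Tim-Fbl at ZT15 and ZT3, against 9.32 and 9.45 in controls at ZT15 and 9.37 and 9.43 in controls at ZT3.

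No small subunit gene passed. The most negative difference was in mRpS7, for the counterpart of bacterial S7, which organises the head of the small subunit. It had 9.48 and 9.42 on the Tim-Fbl ZT15 and ZT3 arrays, against 9.75 and 9.80 on the control ZT15 arrays and 9.73 and 9.61 on the control ZT3 arrays, a difference of -0.28 (SE 0.076, limma adjusted p = 0.0652). At an unadjusted p under 0.05 there were 6 of the 25 small subunit genes and 15 of the 44 large subunit genes, all of them lower, or 24.0% and 34.1%, against 14.3% of all probe sets. The subunits had similar medians, -0.12 for the small and -0.14 for the large, and 23 of 25 and 40 of 44 differences were below 0. A name does not always give the place: in mammalian mitochondrial ribosomes the counterparts of mRpS18A and mRpS30 sit in the large subunit. Their differences here were -0.21 and -0.09.

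**Figure D3:**
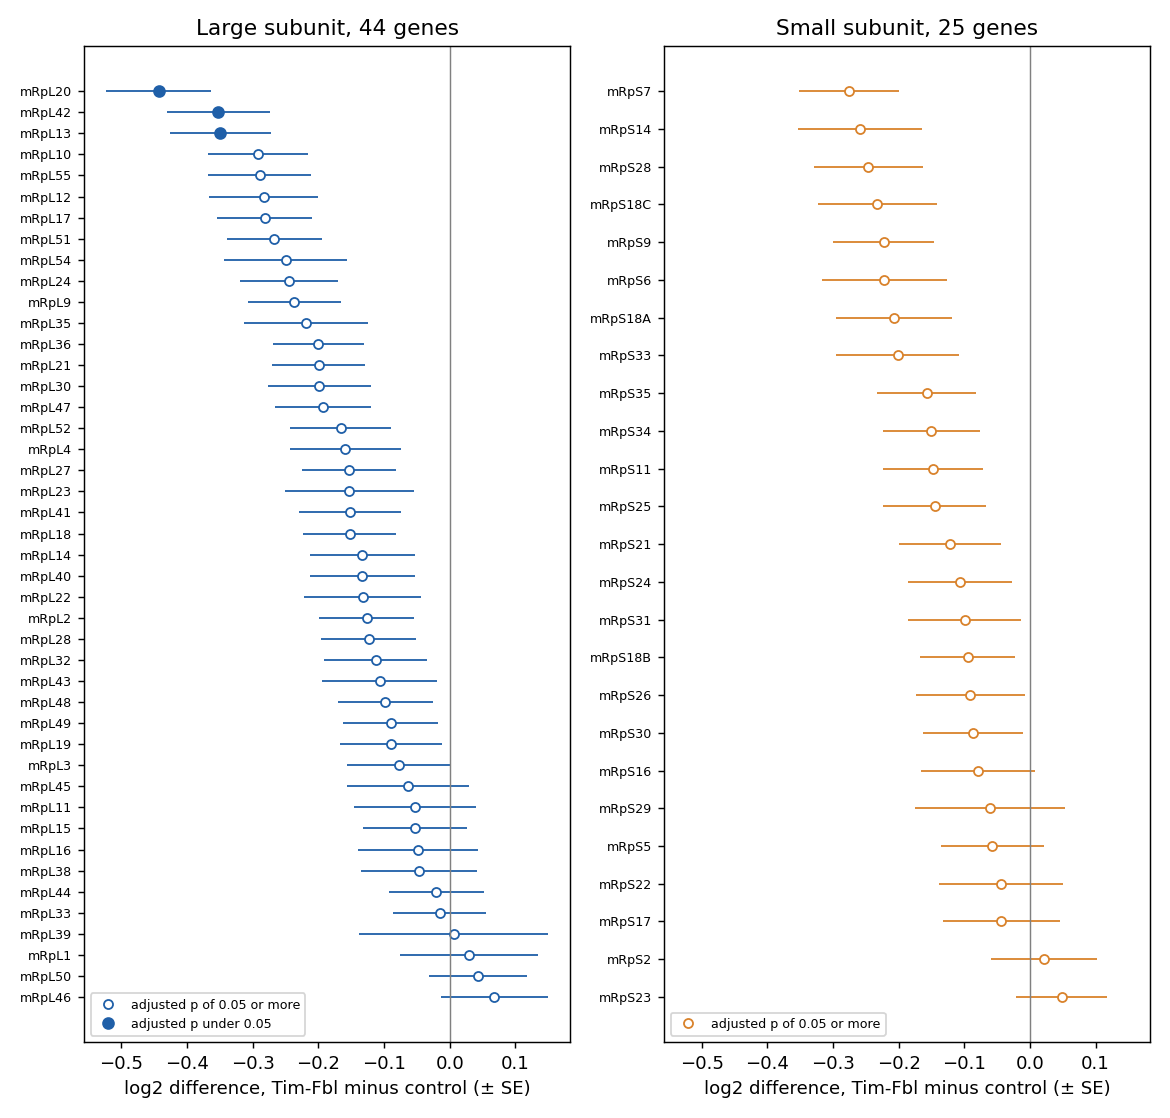
Strain difference in log2 units, Tim-Fbl minus control (horizontal axis, points with ± SE from limma), for each of 44 large subunit (left) and 25 small subunit (right) mRp genes, sorted by difference; filled points had an adjusted p under 0.05. The 3 filled points, mRpL20, mRpL42 and mRpL13, head a continuous series from -0.44 to 0.07 in which 63 of 69 differences lie below 0.

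The plot of strain differences shows a continuous series with no gap between the genes that passed and the rest. Of the 69 differences, 21 were below -0.2, 36 lay from there up to -0.05, and 12 were at -0.05 or above. Their SD over genes was 0.10, and the SE of a single gene's difference had a median of 0.079 and a range of 0.069 to 0.14, so most genes could not be told apart from each other in the size of their difference. The genes were also split by the number in their names, with mRpS24 and mRpS28 placed by hand. The 42 placed with bacterial counterparts had a median of -0.15, with 40 below 0. The 27 placed as found only in mitochondria had a median of -0.10, with 23 below 0. This split was not checked against homology, so some genes may stand in the wrong class. The genes with brighter probe sets tended to have the more negative differences (Pearson r = -0.27, Spearman rho = -0.40 over the 69 genes, which share the same 6 arrays). This is a description across genes and was not tested.

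Only 6 genes had a strain difference above 0, and none of them passed. They were mRpL46 (0.07, SE 0.081) and mRpL50 (0.04, SE 0.075), both for large subunit proteins found only in mitochondria, and mRpS23 (0.05, SE 0.069), for a small subunit protein of that kind. The others were mRpL1 (0.03), mRpS2 (0.02), for the counterpart of bacterial S2, and mRpL39 (0.01, SE 0.14). In all 6 the Tim-Fbl and control values overlapped. The values of mRpL39 spread most, at 8.39 and 8.32 on the Tim-Fbl ZT15 and ZT3 arrays, against 8.56 and 8.04 on the control ZT15 arrays and 8.48 and 8.34 on the control ZT3 arrays. After quantile normalization or cyclic loess all 6 differences turned negative, between -0.10 and -0.01.

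The strain difference was seen at both times when each was taken alone. At ZT15 the median over the 69 genes was -0.16 with 65 below 0, and at ZT3 it was -0.13 with 58 below 0. These counts are 94.2% and 84.1% of the genes. Over all probe sets the medians at ZT15 and ZT3 were -0.03 and -0.02, with 55.4% and 53.5% below 0. Over the probe sets with a mean log2 of at least 7 they were 0.04 and 0.13, with 42.2% and 32.2% below 0. A difference below 0 at both times was found for 55 genes, at ZT15 alone for 10, at ZT3 alone for 3 and at neither for 1, which was mRpS23. These joint counts were not made over all probe sets, so they have no background share. Over the 69 genes the differences at ZT15 and at ZT3, which use separate arrays, had a Pearson r of 0.54 and a Spearman rho of 0.55, given as a description. Over all probe sets, genes with large strain differences included, Pearson's r was 0.66.

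The median over the 69 genes depended on the scaling of the arrays, and so did that of the brighter probe sets. Over those with a mean log2 of at least 7, the median strain difference was 0.09 in the deposited values. It was 0.12 after subtraction of each array's median, 0.005 after quantile normalization and 0.008 after cyclic loess. For the mRp genes the deposited values gave a median of -0.13. Further quantile normalization gave -0.22 with 13 genes lower, or 18.8%, against 3.16% of all probe sets and 6.04% of those with a mean log2 of at least 7 under the same scaling. Cyclic loess gave -0.24 with 18 genes lower, or 26.1%, against 3.10% of all and 6.08% of those at 7 or more. Without overlap below the controls there were then 59 of 69, or 85.5%, against 15.5% of all and 19.6% of those at 7 or more. Subtraction of each array's median gave -0.10 with 1 gene lower, or 1.45%, against 2.54% of all, and 26 of 69 without overlap below the controls, or 37.7%, against 15.6% of all. Under each of these the median over the 69 stayed below 0 and 0 genes rose.

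Several other values differed between the strains' arrays. The median of 3 probe sets for 18S rRNA was 11.8 and 11.5 log2 units on the Tim-Fbl ZT15 and ZT3 arrays, against 12.7 and 11.4 on the control ZT15 arrays and 12.5 and 12.3 on the control ZT3 arrays. On the control ZT15 array with the low value the mRp median lay 0.03 above the control mean. That is 1 array, which cannot decide whether rRNA and mRp values are linked. The median of 12 poly-A spike-in probe sets was 6.76 and 5.17 on the Tim-Fbl ZT15 and ZT3 arrays, against 5.22 to 5.89 on the controls, and the mRp shift was -0.14 and -0.15 on these 2 Tim-Fbl arrays. Of the cell type markers, neuronal genes had a median strain difference of 0.21, with 0 of 6 passing and elav nearest (0.35, adjusted p = 0.0524). Glial genes had a median of 0.25, and alrm, an astrocyte marker, rose by 0.34 while the other 5 did not pass; 4 of the 6 differences were above 0 and 2 below, the lowest that of Gs2, a glutamine synthetase gene, at -0.27. The neuronal markers averaged 9.50 and 9.43 log2 units on the Tim-Fbl ZT15 and ZT3 arrays, against 9.13 to 9.49 on the control arrays, and the glial markers 10.7 on both, against 10.5 to 10.7. Photoreceptor markers (median -0.08, 0 of 5 passing) averaged 12.7 and 12.9, against 12.8 to 13.0, and fat body markers (-0.08, 0 of 7 passing) averaged 11.4 and 11.3, against 11.3 to 11.6. Muscle markers (0.13) averaged 9.82 and 9.60, against 9.31 to 9.61, and in them Act88F, a flight muscle actin, rose by 1.31 while the other 4 did not pass. Gut markers (-0.25) averaged 4.86 and 4.99, against 5.06 to 5.16, and epsilonTry and Mal-A1 fell while the other 4 did not pass. Ovary and eggshell markers (-0.28) averaged 5.27 and 5.29, against 5.33 to 5.51, where grk rose, Cp15 and bcd fell and the other 4 did not pass. The share that rose was 16.7% of glial, 20% of muscle and 14.3% of ovary and eggshell markers, against 5.44% of all probe sets. The share that fell was 33.3% of gut and 28.6% of ovary and eggshell markers, against 3.35% of all. Of the gut markers 3 of 6, and of the ovary and eggshell markers 4 of 7, had a mean log2 under 5, where signal is near the floor. The part of rRNA, of spike-in signal and of cell makeup in the mRp result was not tested. In whole heads fewer cells of a type and less RNA per cell cannot be told apart.

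In controls, no mRp gene passed the comparison of ZT15 with ZT3. The test used the 4 group means fitted to all 6 arrays, and 0 of the 69 genes rose or fell, against 0.703% of all probe sets, made up of 0.314% that rose and 0.389% that fell. At an unadjusted p under 0.05 there were 4, or 5.80%, against 17.3% of all and 25.3% of those with a mean log2 of at least 7. The median difference, ZT15 minus ZT3, was 0.06 with 45 of 69 above 0, or 65.2%. Over all probe sets the median was -0.01 with 48.5% above 0, and over the probe sets with a mean log2 of at least 7 it was 0.09 with 67.1% above 0. Both ZT15 arrays were above both ZT3 arrays for 26 genes (37.7%, against 26.5% of all probe sets and 44.8% of those with a mean log2 of at least 7) and below both for 9 (13.0%, against 25.6% and 17.5%). The share above thus lay over that of all probe sets and under that of the brighter ones. The sign of the median was not settled: it was 0.00 without the second control ZT3 array, 0.12 without the first, -0.01 after quantile normalization and -0.04 after cyclic loess.

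The time differences were small for nearly all genes, and 39 of 69 lay within 0.1 of 0. The 8 most positive were mRpL1, mRpS29, mRpL15, mRpS31, mRpS5, mRpL38, mRpL4 and mRpL11, from 0.29 to 0.21. The ZT15 and ZT3 arrays did not overlap in any of them, which follows in part from picking them by these same values. Of all probe sets 26.5% had no overlap in this direction, and of those with a mean log2 of at least 7, 44.8%. For mRpL1 the control ZT15 arrays had 8.18 and 8.40, against 8.05 and 7.94 on the control ZT3 arrays, a difference of 0.29 (SE 0.11, limma adjusted p = 0.25). For mRpS29, whose mammalian counterpart DAP3 is a GTP-binding protein of the small subunit also known from cell death, the control ZT15 arrays had 8.58 and 8.88, against 8.45 and 8.43 at ZT3. Its difference was 0.29 (SE 0.12, limma adjusted p = 0.281), and most of it came from the second ZT15 array. For mRpL15, for the counterpart of bacterial L15, the values of 8.65 and 8.68 at ZT15, against 8.47 and 8.34 at ZT3, gave 0.26 (SE 0.093, limma adjusted p = 0.245).

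The most negative time difference in controls was that of mRpL35, for the counterpart of bacterial L35. Both ZT15 arrays had 8.81, against 9.03 and 9.15 on the ZT3 arrays, a difference of -0.28 (SE 0.091, limma adjusted p = 0.225). It was the only gene below -0.2. After it came mRpL22, for the counterpart of a tunnel protein, with 9.14 and 9.03 at ZT15, against 9.26 and 9.24 at ZT3 (-0.17, SE 0.091, limma adjusted p = 0.379). Then came mRpS14, mRpL33, mRpL28, mRpS24, mRpL51 and mRpL39, between -0.15 and -0.11. The ZT15 and ZT3 arrays overlapped for mRpS14 and mRpL39 and not for the other 4. These genes too were picked by their differences, and 25.6% of all probe sets had no overlap in this direction.

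**Figure D4:**
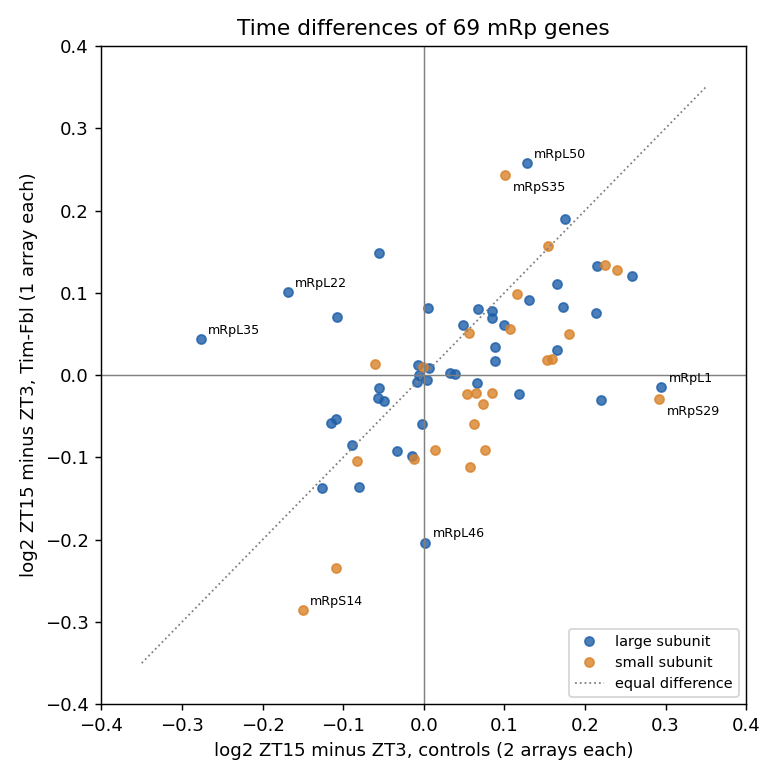
Difference between ZT15 and ZT3 in log2 units for each of the 69 mRp genes, in Tim-Fbl heads (vertical axis, 1 array per time) and in control heads (horizontal axis, 2 arrays per time); the dotted line marks equal differences and named points were picked after their values were seen. Most points lie within 0.2 of 0 on both axes, and the sign is the same in both strains for 46 of 69 genes.

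In Tim-Fbl heads the difference between ZT15 and ZT3 had a median of 0.01 over the 69 genes, with 38 above 0 and a range from -0.29 for mRpS14 to 0.26 for mRpL50. With 1 array per time it has no test of its own. The strain-by-time interaction, the Tim-Fbl time difference minus that in controls, was passed by 0 of the 69 genes, against 0.0373% of all probe sets, and 0 of 69 had an unadjusted p under 0.05, against 5.40% of all. Its median was -0.05 and its SE lay between 0.15 and 0.30, and no difference of the size seen here passed. The 3 largest statistics in the negative direction were those of mRpL1, mRpS29 and mRpL38. In mRpL1 the time difference was -0.01 in Tim-Fbl and 0.29 in controls (interaction -0.31, SE 0.19, limma adjusted p = 0.842). In the positive direction they were mRpL35, mRpL22 and mRpL32. In mRpL35 the time difference was 0.04 in Tim-Fbl and -0.28 in controls (interaction 0.32, SE 0.16, limma adjusted p = 0.842). As the plot of time differences shows, the differences in the strains, which share no array, had a Pearson r of 0.47 and a Spearman rho of 0.52 over the 69 genes, against a Pearson r of 0.29 over all probe sets, given as a description.

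Other probe sets of mRp genes, and the genes tko and bonsai, gave similar values. A second probe set of mRpS11 differed between strains by -0.15 (SE 0.086) and one of mRpL47 by -0.15 (SE 0.073), against -0.15 and -0.19 for the probe sets used. Of the proteins whose genes have other symbols, tko (S12, at the decoding centre) was at 9.40 and 9.51 on the Tim-Fbl ZT15 and ZT3 arrays, against 9.73 and 9.61 on the control ZT15 arrays and 9.68 and 9.61 on the control ZT3 arrays. It differed by -0.20 (SE 0.080, limma adjusted p = 0.15). The gene bonsai (S15) was at 8.98 and 8.94, against 9.14 and 9.24 at ZT15 and 9.12 and 9.09 at ZT3 in controls, a difference of -0.19 (SE 0.074, limma adjusted p = 0.136). In both genes the strains did not overlap. The gene CG4866 was added only because RefSeq gives it the synonym mRpS4, and whether its protein belongs to the mitochondrial ribosome was not checked. It differed by -0.11 (SE 0.13) with overlapping values, and by -0.30 at ZT15 and 0.09 at ZT3 taken alone. None of tko, bonsai and CG4866 passed, and in controls their time differences were 0.02, 0.08 and 0.13.

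The genes that work with the mitochondrial ribosome did not all lie on the same side. Of all probe sets 3.35% fell, with a median strain difference of -0.03. Of those with a mean log2 of at least 7, 4.91% fell, with a median of 0.09. Of 9 mitochondrial translation factors 1 fell, or 11.1%, and 8 did not pass, with a median strain difference of 0.05. The one that fell was mEFTu1, for the elongation factor that brings charged tRNAs to the ribosome (-0.31, SE 0.073, limma adjusted p = 0.0422), followed without passing by mEFG1, for the translocation factor (-0.28), and mRRF2, a recycling factor gene (0.29). Of 19 tRNA synthetases that serve mitochondria, some of which also serve the cytosol, none passed, with a median of 0.02; the largest statistics were those of MetRS-m (-0.28) and LeuRS-m (0.19). Of 17 genes for copying, transcribing and processing mitochondrial DNA and its RNA 1 fell, or 5.88%, and 16 did not pass. Their median was 0.03. The gene that fell was scu, for a dehydrogenase that is also a subunit of mitochondrial RNase P (-0.36, SE 0.086, limma adjusted p = 0.0470), and PolrMT, for the mitochondrial RNA polymerase, differed by 0.27 without passing.

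Protein import and folding genes had a median of -0.10, with 2 of 17 falling, or 11.8%, 15 not passing and 14 below 0, or 82.4%. Over all probe sets 3.35% fell and 55.5% were below 0. Among those with a mean log2 of at least 7, 4.91% fell and 34.2% were below 0. Those that fell were Phb2 and Phb1, for the prohibitins of the inner membrane, which fell by 0.45 and 0.43. Nuclear oxidative phosphorylation genes, whose complexes hold the products of the mitochondrial ribosome, had a median of -0.19, with 72 of 79 below 0, or 91.1%. Of them 8 fell, or 10.1%, and 71 did not pass, against the same background shares. Among them ATPsyndelta fell by 0.41 and ND-19 by 0.38. Of the import genes 3 of 17, and of the oxidative phosphorylation genes 16 of 79, had a mean log2 under 5, where signal is near the floor. Cytosolic ribosomal protein genes had a median of -0.04, with 27 of 34 below 0 and none passing. Their median signal, 13.6, was near the upper end of the scale, where array signals can be compressed. No test was run between these lists and the mRp genes, so their medians are given side by side as descriptions.

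**Figure D5:**
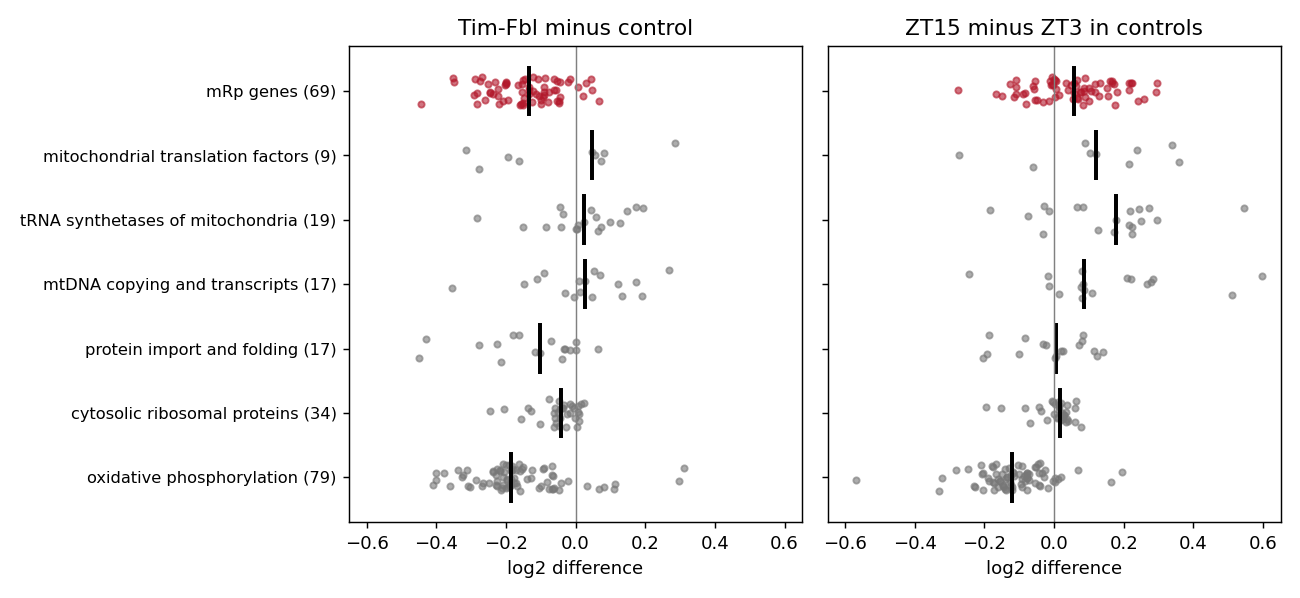
Log2 differences of single genes (points, 1 probe set per gene) in the mRp family and in 6 other lists with the number of measured genes in brackets, for Tim-Fbl minus control (left) and ZT15 minus ZT3 in controls (right); black bars are list medians. On the left the medians are -0.13 for mRp genes, 0.05, 0.02 and 0.03 for the next 3 lists, and -0.10, -0.04 and -0.19 for import, cytosolic ribosome and oxidative phosphorylation; on the right they are 0.06, 0.12, 0.18, 0.08, 0.00, 0.02 and -0.12.

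For the time of day in controls, none of these lists had a gene that passed. The oxidative phosphorylation genes had a median of -0.12 with 72 of 79 below 0, where the mRp genes had 0.06 with 24 of 69 below 0 and all probe sets had 51.5% below 0. The tRNA synthetases had a median of 0.18, with ValRS-m at 0.54 (SE 0.099, limma adjusted p = 0.0808). The translation factors had a median of 0.12, with mIF2, for the initiation factor, at 0.36. The mitochondrial DNA list had a median of 0.08, with mtDNA-helicase, for the replicative helicase, at 0.60 (SE 0.13, limma adjusted p = 0.131) and PolrMT at 0.51. Protein import genes and cytosolic ribosomal protein genes had medians of 0.00 and 0.02.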

How the data were processed

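The deposited values are log2 signals, 18952 probe sets on 6 arrays. Per the submitters' processing notes the tool was RMA, with no version; the values' range gave the log2 scale, and 3 µg of total RNA was labelled per the labels' protocols. Scaling arrays to each other would hide a shift common to all transcripts, but the deposited distributions are not equal: over probe sets with a mean log2 of at least 7, array medians run from 8.81 to 8.96. Without 183 control probe sets, 18769 were tested with limma 3.58.1 in R 4.3.3: the strain effect in an additive model of strain and time (3 residual degrees of freedom), the time effect and the interaction from group means (2). Only the control pairs replicate, and Tim-Fbl arrays were assumed to vary like them. Arrays have no read depth, and their number limits the precision. Named genes were the 8 largest differences each way for strain and time (for strain only 6 lay above 0), the 3 largest statistics each way for the interaction, and up to 4 per list; members and lists were chosen with earlier results of these data known. Part of that rule, the genes with the highest and lowest level, was not used, since signals of different probe sets cannot be ranked. All 69 symbols matched the RefSeq table of Release 6 plus ISO1 MT; coordinates and sequences are not used here. In the other lists, 9 of 15 entries for translation factors, 19 of 20 for synthetases, 17 of 22 for mitochondrial DNA and 17 of 24 for import were measured. Of the marker entries, 6 of 8 for neurons, 5 of 8 for photoreceptors, 6 of 7 for glia and 7 of 7 for fat body were measured. So were 5 of 8 for muscle, 6 of 6 for gut and 7 of 8 for ovary and eggshell. Entries that were not measured were not analysed here. Functions were tested on simulated arrays with changes of 1 and 2 log2 units. These are larger than any mRp difference, so that test does not cover the sizes reported here. Replicate numbers 1 and 2 give only 2 pairs. Alternatives were 2 filters on dim probe sets, 3 normalizations, 2 variance models, the mean over a gene's probe sets, other models, the replicate block, and leaving out each array. Figures used matplotlib 3.10.9.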

Additional observations from a re-analysis of the deposited data

Results flagged for a closer look

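The poly-A spike-in controls, which no comparison above uses, had a median of 6.76 log2 units over 12 probe sets on the Tim-Fbl ZT15 array, above the highest control array at 5.89. No mRp gene passed the strain-by-time interaction.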

How the results depend on the processing

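The median strain difference of the 69 genes was below 0 in every setting tried. It was -0.22 after quantile normalization and -0.24 after cyclic loess, in place of -0.13, and -0.16 to -0.12 when each array was left out. Over probe sets with a mean log2 of at least 7 the median was 0.005 and 0.008 with these 2 scalings, in place of 0.09. The number of genes lower, 3 as reported, was 5 after a filter at a mean log2 of 5 and 8 after one at 7, where fewer probe sets are tested, 1 after median subtraction, 13 after quantile normalization, 18 after cyclic loess and 0 to 2 with each array left out. The share of all probe sets tested that was lower, 3.35% as reported, was 5.44% and 5.56% with the filters, 2.54%, 3.16% and 3.10% with these scalings, and 0.559% to 2.26% with each array left out. Genes with no overlap below the controls numbered 38, 26 after median subtraction, 54 after quantile normalization and 59 after cyclic loess; leaving out an array can only keep or raise this number (39 to 48). The median time difference in controls, 0.06, was -0.0056 after quantile normalization, -0.045 after cyclic loess, and 0.00024 to 0.12 with each array left out. The interaction's median, -0.05, was 0.039 after cyclic loess and -0.093 to -0.0049 with each control array left out. The cause of these moves was not tested. No gene passed for time or interaction under any of these settings.

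Of the strain differences above 0, quantile normalization gave -0.0093 for mRpL46, -0.075 for mRpS23, -0.058 for mRpL50, -0.093 for mRpL1, -0.081 for mRpS2 and -0.084 for mRpL39. Cyclic loess gave -0.038, -0.062, -0.068, -0.082, -0.090 and -0.10 in the same order. With each array left out, the strain difference was -0.035 to 0.171 for mRpL46, -0.022 to 0.108 for mRpL50, -0.126 to 0.184 for mRpL1, -0.039 to 0.082 for mRpS2 and -0.119 to 0.105 for mRpL39. The time difference of mRpL39 was -0.370 to 0.153, its highest value without control ZT15 replicate 2.

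With the replicate number as a replicate block in the control arrays, 0 genes passed for time, as without it, and the median stayed at 0.06. The deviations of same-numbered control arrays correlated at 0.04 over all probe sets and 0.19 over the 69 genes. The single Tim-Fbl array per time limits every strain and interaction value, and the interaction could not be fitted without either Tim-Fbl array.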
